A study of Mus musculus with 4 samples.

Results

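The genotype by OVA interaction asks, gene by gene, whether the lung response to OVA-induced allergic airway inflammation differed between WT and Rab44-knockout (Rab44-KO) mice. All genes with at least 100 counts in some library entered it, which took 13899 of the 41079 genes in the count table (33.8%). For each gene, the WT response is the log2 ratio of the OVA-induced over the normal WT library, the Rab44-KO response is the same ratio in Rab44-KO, and the interaction is the Rab44-KO response minus the WT response. The same number is obtained as the Rab44-KO over WT ratio in OVA-induced lungs minus that in normal lungs. Both responses could be measured for 13886 genes, called evaluable here, which have at least 10 counts in the higher library of each genotype. The other 13 genes are measured in 1 genotype.

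Whole lung RNA was sequenced in 4 libraries, 1 from normal and 1 from OVA-induced mice of each genotype, all C57BL/6 and 8 to 14 weeks old. Rab44-KO mice were made with CRISPR/Cas9 and lack the gene in all tissues, so the comparison is not limited to a cell type. OVA-induced mice were sensitised with 100 μg ovalbumin (OVA) plus alum injected into the peritoneum on days 0, 7 and 14, then given OVA into the nose from day 17 to day 20, and lungs were taken on day 21. Normal mice are labelled untreated, although the protocol text also names PBS, and neither the number of mice per library nor the hour of collection is stated in the sources used here.

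With 1 library per group there is no replicate, no difference below has a test, and every statement compares libraries. "Rose" and "fell" mean past 2-fold (a log2 ratio beyond 1 or −1) between 2 libraries. Values in brackets after an interaction are its exact 95% interval for counting error only. For 2 genes with very high counts, Sftpc among them, a normal approximation was used. Total counts ran from 18112901 to 19910236 per library, so counts are comparable between libraries almost as they stand, and ratios were taken on counts scaled by library size. Unless said otherwise, 4 counts given in a row are those of normal lungs, WT then Rab44-KO, followed by those of OVA-induced lungs, again WT then Rab44-KO.

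The libraries do not match the study's methods in the sex of the mice. These are described as female, but the Y-linked genes Ddx3y, Uty and Kdm5d were counted in all 4 libraries, at 79.3 to 114 CPM (counts scaled to a common library size), 18.7 to 27.1 CPM and 25.2 to 37.5 CPM. Xist, the RNA that silences an X chromosome in female cells, was at 2.14, 2.19, 27.8 and 3.69 CPM, and so stood apart in the OVA-induced WT library. Eif2s3y, also Y-linked, had 397 counts in normal WT and 1259 to 1730 in the other 3 libraries. Both Xist and Eif2s3y fall among the blunted rises defined below. These genes were chosen after their values were seen. Their part in the results was not tested, and no library can be left out because each is the only one of its group.

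OVA sensitisation and challenge drive a type 2 response in the airway. Interleukin-4 and interleukin-13 signal through the factor STAT6, airway epithelium turns to mucus production, macrophages take on an alternatively activated state, and chemokines draw in eosinophils, lymphocytes and plasma cells. Rab44 is an atypical, large Rab GTPase of immune cells, and Rab GTPases direct membrane traffic, including the release of granules. A WT response past 2-fold is called blunted here where the interaction goes against it by over 1, kept where Rab44-KO also passed 2-fold and the interaction is within 1, and larger where the interaction adds over 1. A response past 2-fold in Rab44-KO alone is called gained where the interaction is also beyond 1. The rest of the responses past 2-fold in 1 genotype are near the threshold.

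Rab44 itself (chromosome 17, 29114145 to 29148980, GRCm38) had 251, 1, 810 and 0 counts. Both Rab44-KO libraries were thus at or near 0, while WT rose 3.20-fold with OVA. Rab44-KO over WT was −7.74 on the log2 scale in normal lungs, with an interval from −13.21 to −5.41 because it rests on 1 count. In OVA-induced lungs Rab44-KO was at least 272-fold lower, taking the 0 at a floor of 3 counts. No Rab44-KO response can be read from 1 and 0 counts, so Rab44 has no interaction value.

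Across the 13886 evaluable genes, 794 rose in WT (5.72%) and 379 rose in Rab44-KO (2.73%), while 251 fell in WT (1.81%) and 201 fell in Rab44-KO (1.45%). Both genotypes shared 248 rises, which are 31.2% of those in WT and 65.4% of those in Rab44-KO. They shared 54 falls, or 21.5% and 26.9%. The WT rises had a median WT response of 1.48 and a median Rab44-KO response of 0.62. The Rab44-KO rises had medians of 1.51 in their own genotype and 1.47 in WT. Across genes, which are not replicates, both responses correlated with a Pearson's r of 0.53 and a Spearman's rho of 0.17. The genotypes share no library in these ratios, but they share gene lengths and base composition.

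The interaction was below −1 for 669 genes (4.82%) and above 1 for 435 (3.13%), with a median of −0.05 over all evaluable genes. The split depends on scaling. On the deposited TPM (a length-scaled transcript abundance), whose all-gene median lies 0.30 higher, 362 genes were below −1 and 1066 above 1, so 25.4% of these genes were below in place of 60.6%. Shifting the TPM responses to the medians of the counts gave 654 and 401. On library totals alone the numbers were 583 and 510 (53.3% below). With the trend of the responses with gene length removed they were 513 and 417 (55.2%). A minimum of 10 counts gave 1370 and 1312 (51.1%), and a minimum of 500 counts gave 272 and 151 (64.3%). Counting error alone leaves the interval of 283 genes wholly below −1 and of 140 wholly above 1.

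The WT rises divide into 411 blunted rises (2.96% of evaluable genes, 51.8% of the WT rises), 144 kept rises (1.04%), 17 larger rises in Rab44-KO (0.122%) and 222 that missed 2-fold in Rab44-KO but differed by no more than 2-fold from WT. A rise was gained by 64 genes (0.461%), beside 63 that rose in Rab44-KO alone near the threshold and 4 that rose there and fell in WT. The WT falls divide into 128 blunted falls (0.922%, 51.0% of the WT falls), 45 kept falls (0.324%), 5 larger falls (0.036%) and 73 near the threshold, and 52 genes gained a fall (0.374%), beside 78 near the threshold that fell in Rab44-KO alone and 17 that fell there and rose in WT. On TPM there were 269 blunted rises, 119 gained rises, 243 blunted falls and 22 gained falls, with 389 WT falls. A blunted class is chosen on the WT libraries and its interaction uses them again, so class members are described by their values and the class is no check of itself. Some genes reached 100 counts in the OVA-induced WT library alone, such as Muc5ac, Arg1, Ccl2, Prg2, Batf3 and Aurkb. Their WT rise and negative interaction follow in part from the count minimum, and class counts of the gene lists below are descriptions.

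**Figure D1:**
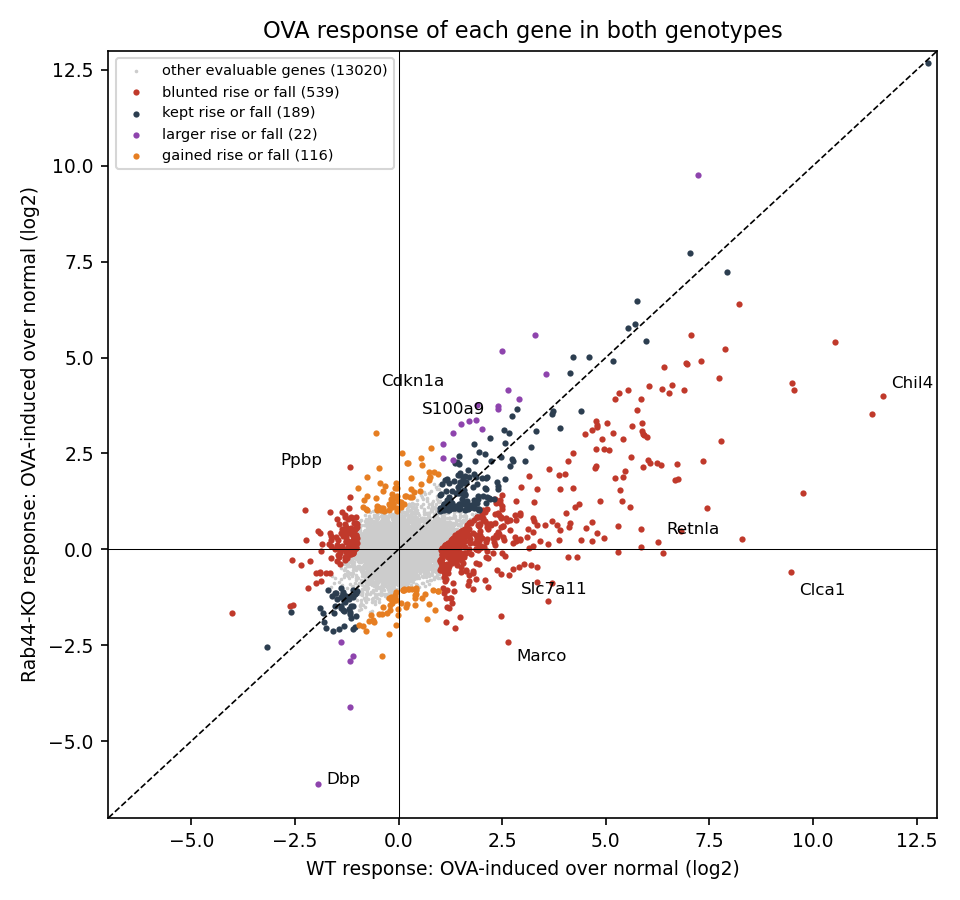
OVA response (log2 of OVA-induced over normal) in WT on the horizontal axis and in Rab44-KO on the vertical axis, 1 point per evaluable gene, coloured by class, with the line of equal responses dashed. Most large WT responses lie below the line, with Clca1 at 9.46 and −0.58, while S100a9 at 2.67 and 3.03 lies close to it and Dbp at −1.95 and −6.11 far under it.

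Among the 411 blunted rises, the Rab44-KO response was within 2-fold for 307, still above 2-fold for 87 (21.2%) and past 2-fold in the opposite direction for 17. Their median responses were 1.89 in WT and 0.24 in Rab44-KO. Before OVA, 281 (68.4%) differed by no more than 0.5 in log2 between the normal libraries, against 95.8% of all evaluable genes. Over 2-fold apart were 49 (11.9%), of which 42 were higher in Rab44-KO, against 0.785% of all evaluable genes. The normal libraries enter both the choice of the class and this difference. An excess of normal differences, mostly with Rab44-KO higher, is thus in part built in. Short genes were frequent among blunted rises, with 280 (68.1%) in the 3 shortest of 10 equal groups by gene length, and 308 stayed in the class when the trend of both responses with length was removed (given with the length values near the end).

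Clca1 had the most negative interaction. It encodes a secreted goblet cell protein of the chloride channel accessory family and lies on chromosome 3 of GRCm38 from 145003817 to 145032776. Its counts were 47, 108, 33407 and 77. The OVA-induced WT library stood alone, 703-fold above normal WT, and the OVA-induced Rab44-KO library lay below its own normal library. The interaction was −10.04 (−10.73 to −9.42). In bulk lung RNA, fewer cells of a type and less RNA per cell cannot be told apart, here and in every gene group below.

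Clca1 belongs to the mucus gene list. Of 14 listed goblet cell and mucus genes 9 were evaluable, all 9 had an interaction below −1 and 8 were blunted rises, with median responses of 2.17 in WT and −0.58 in Rab44-KO and a median interaction of −3.25 (−2.77 with the length trend removed). The other 8 genes had medians of 1.92 in WT, −0.43 in Rab44-KO and −3.20 for the interaction. Their summed CPM were 144, 180.5, 657 and 144, and with Clca1, which gives 1725 of the CPM in OVA-induced WT, the sums were 146, 187, 2382 and 148. Muc5ac, the gel-forming mucin of goblet cells, had 43, 27, 649 and 41 counts, and its interaction was −3.39 (−4.27 to −2.49). Muc5b, the mucin of resting airways, had 1072, 1082, 2753 and 962 counts, a WT rise that was absent in Rab44-KO. Fcgbp, a large mucus glycoprotein, went from 117 to 2978 counts in WT and from 102 to 179 in Rab44-KO. Slc26a4, the anion exchanger pendrin, kept part of its rise, from 42 to 3426 counts in WT and from 53 to 260 in Rab44-KO, with an interaction of −4.14 (−4.79 to −3.49). Bpifb1, a secreted airway protein, was the member that did not rise past 2-fold in WT, at 1272, 1838, 2230 and 1296 counts.

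Alternatively activated macrophage genes followed. Of 9 listed genes 7 were evaluable, 6 were blunted rises and Mrc1 was near the threshold, with a median response of 3.34 in WT against 0.41 in Rab44-KO. Retnla, a secreted resistin-like protein and a classic STAT6 target, had 578, 771, 44659 and 944 counts, and only the OVA-induced WT library was high. Its interaction was −6.06 (−6.25 to −5.88). Chil4, a chitinase-like protein, had 2, 1, 7063 and 19 counts. Both OVA-induced libraries exceeded their normal library, but the interaction of −7.69 has an interval from −12.00 to −1.66 because the normal libraries hold so few counts. Chil3, its neighbour on the chromosome, went from 6811 to 101647 counts in WT and from 5639 to 17869 in Rab44-KO, a rise in both genotypes with an interaction of −2.32 (−2.37 to −2.26). Mgl2, a lectin of type 2 macrophages and dendritic cells, had 358, 327, 1572 and 304.

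The promoters of 3 strongly blunted genes, Retnla, Chil4 and the chemokine Ccl8 described below, are given because interleukin-4 and interleukin-13 act through STAT6, with Ppbp, a marker of the gained rises, beside them. Sequences are from RefSeq on GRCm38.p6, 250 bases before to 50 after the gene's start, 5′ to 3′ on the gene's strand. Retnla spans chr16:48842359-48842658 (plus strand) and its capitals mark a STAT6 motif (TTC and GAA 4 bases apart) that begins 145 bases before the start. Chil4 spans chr3:106219430-106219729 (minus strand) and its capitals mark the general STAT motif (TTC and GAA 3 bases apart), 200 bases before the start. Ccl8 spans chr11:82114935-82115234 (plus strand) and Ppbp chr5:90768268-90768567 (plus strand), and both hold neither, so that blunted genes are found with and without the motif.
Retnla: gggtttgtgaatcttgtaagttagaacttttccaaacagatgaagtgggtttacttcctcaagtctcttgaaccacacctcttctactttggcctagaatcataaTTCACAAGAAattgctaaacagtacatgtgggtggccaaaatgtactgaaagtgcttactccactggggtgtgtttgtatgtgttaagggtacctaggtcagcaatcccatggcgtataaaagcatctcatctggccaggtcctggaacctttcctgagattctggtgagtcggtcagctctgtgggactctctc
Chil4: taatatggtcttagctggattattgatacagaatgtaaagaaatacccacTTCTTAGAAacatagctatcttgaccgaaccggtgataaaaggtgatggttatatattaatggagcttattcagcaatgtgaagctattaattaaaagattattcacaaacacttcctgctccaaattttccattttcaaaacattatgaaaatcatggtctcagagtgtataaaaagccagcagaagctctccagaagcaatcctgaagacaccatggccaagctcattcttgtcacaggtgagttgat
Ccl8: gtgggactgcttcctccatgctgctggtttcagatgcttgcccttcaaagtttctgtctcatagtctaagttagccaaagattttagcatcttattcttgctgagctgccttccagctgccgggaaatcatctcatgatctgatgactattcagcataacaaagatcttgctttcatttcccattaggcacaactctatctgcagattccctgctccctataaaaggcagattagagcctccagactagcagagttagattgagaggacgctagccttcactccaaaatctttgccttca
Ppbp: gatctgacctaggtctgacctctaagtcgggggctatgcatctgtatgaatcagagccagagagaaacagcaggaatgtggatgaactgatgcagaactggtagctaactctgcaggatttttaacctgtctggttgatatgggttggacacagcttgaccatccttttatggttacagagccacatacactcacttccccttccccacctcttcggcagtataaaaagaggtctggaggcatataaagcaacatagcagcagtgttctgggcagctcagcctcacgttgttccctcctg

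Both motifs were searched on both strands, and a window can hold both. Of the 411 blunted rises 247 matched a promoter by symbol, and 22 of these (8.91%) held the STAT6 motif. The share was 7 of 98 (7.14%) for kept rises, 3 of 43 (6.98%) for gained rises, 690 of 10601 (6.51%) for all evaluable genes and 6.95% for all 32851 promoters in the table. For the general STAT motif the shares were 22 of 247 (8.91%), 16 of 98 (16.3%), 2 of 43 (4.65%), 877 of 10601 (8.27%) and 8.3%. These shares are descriptions of the letters in the windows, and a match is not a binding site.

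Chemokines of eosinophil, monocyte and T cell recruitment were blunted. Of 13 evaluable CC chemokines 11 were blunted rises, with a median response of 2.56 in WT against −0.06 in Rab44-KO, and Ccl21a and Ccl27a did not rise in either genotype. Members such as Ccl2, Ccl8, Ccl20 and Ccl24 reached 100 counts in the OVA-induced WT library alone. The number of blunted rises thus follows in part from the count minimum. Ccl8, which draws T cells and monocytes, had 31, 43, 1226 and 44 counts and an interaction of −5.35 (−6.20 to −4.50). Ccl11 (eotaxin-1) had 94, 141, 965 and 110 counts, and Ccl24 (eotaxin-2) had 19, 17, 114 and 16. In Rab44-KO, Ccl8 and Ccl24 stayed level with OVA, and Ccl11 was lower at 0.73-fold, within 2-fold. Ccl6 and Ccl9, made by macrophages and other myeloid cells, had 2518, 3541, 22238 and 5493 counts and 211, 230, 1662 and 754 counts, and Ccl9 still rose in Rab44-KO. Ccl20, which draws dendritic cells and interleukin-17-producing cells, had 0, 4, 109 and 12 counts, and with the 0 at 3 counts its interaction was −3.68.

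Of 17 evaluable CXC chemokines and receptors 7 were blunted rises. Cxcl9 and Cxcl10, interferon-induced ligands of Cxcr3, had 6, 13, 105 and 12 counts and 8, 36, 107 and 21 counts. Cxcr1, a receptor for neutrophil-attracting chemokines, had 51, 60, 1187 and 95 counts and an interaction of −3.96 (−4.61 to −3.31). Cxcr2, the other such receptor, had 74, 117, 496 and 642 counts and rose in both genotypes. Cxcl12, which holds leukocytes in tissue, had 3819, 3544, 5851 and 7597 counts and passed 2-fold only in Rab44-KO, by a small margin, with an interaction of 0.40.

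Eosinophil genes were few in these lungs: 6 of 10 listed genes reached 100 counts and 4 were evaluable. Epx, Prg3, Il5ra and Clec4a4 stayed under 100 counts in every library. All 4 evaluable genes had an interaction below −1. Of these, Prg2 reached 100 counts in the OVA-induced WT library alone, so its place follows in part from the count minimum. Alox15, a lipid-oxidising enzyme of eosinophils and macrophages, had 131, 153, 942 and 190 counts and an interaction of −2.62 (−3.03 to −2.20). Ccr3, the eotaxin receptor, had 114, 153, 490 and 94. Prg2, the major basic protein of eosinophil granules, had 1, 9, 185 and 48 counts, so its interaction of −5.04 has an interval from −10.65 to −2.26. Siglecf, a surface lectin, had 268, 222, 407 and 175 counts and did not pass 2-fold in either genotype.

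The genes upstream in the type 2 response had smaller values. Il4, Il5 and Il13 themselves stayed under 100 counts in every library. Of 7 evaluable type 2 cytokine, alarmin and receptor genes, only the alarmin Il33 was a blunted rise, with 1302, 1441, 3834 and 2198 counts and an interaction of −1.03 (−1.17 to −0.90). Its receptor gene Il1rl1 rose in WT, 122 to 352 counts, and reached 173 from 106 in Rab44-KO. Il4ra, the receptor chain shared by interleukin-4 and interleukin-13, had 1866, 1974, 2581 and 3532 counts and was highest in OVA-induced Rab44-KO. The median interaction of the list was −0.56.

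**Figure D2:**
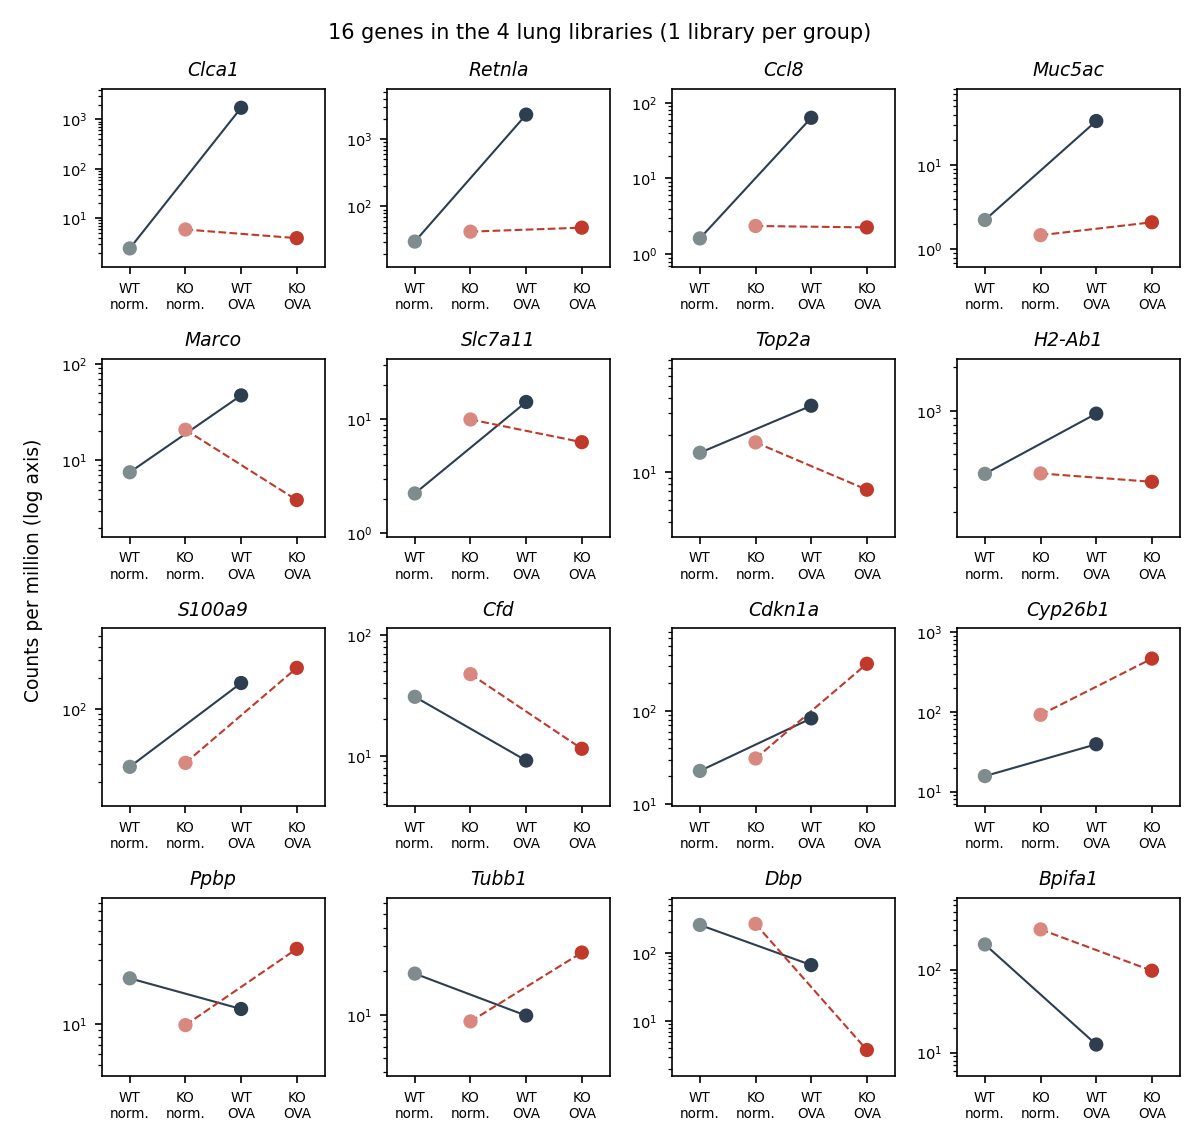
CPM (log axis, its range set per gene) of 16 genes in the 4 libraries, 1 point per library, with lines joining normal and OVA-induced lungs of WT (solid) and Rab44-KO (dashed). Clca1, Retnla, Ccl8 and Muc5ac are high in the OVA-induced WT library alone, Marco and Top2a move in opposite directions, S100a9 and Cfd move in parallel, and Ppbp and Tubb1 rise in Rab44-KO alone.

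Of 11 evaluable immunoglobulin constant genes 10 rose in WT and 8 in Rab44-KO, and 8 were blunted rises, with a median response of 4.75 in WT against 3.04 in Rab44-KO. Ighm, the IgM heavy chain, had 2103, 2070, 56984 and 9570 counts, and Ighg1, the IgG1 heavy chain of type 2 responses, had 45, 26, 10764 and 1043. Both rose past 2-fold in Rab44-KO too, with interactions of −2.63 (−2.73 to −2.54) and −2.66 (−3.39 to −1.90). Igha, the IgA heavy chain, had 689, 1396, 15811 and 12100 counts, with Rab44-KO the higher genotype before OVA. Iglc1, a lambda light chain constant gene, was the kept rise, at 3.73 in WT and 3.61 in Rab44-KO. Igkc, the kappa light chain, had 1309, 1159, 47753 and 10178 counts.

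The variable genes did not move as 1 block. Of 183 listed heavy chain and 162 kappa variable genes, 40 and 51 reached 100 counts, all of them in an OVA-induced library, most often that of WT, and none in a normal one. Rises in WT and blunted rises thus follow in part from the count minimum, and their numbers are a description. All 39 evaluable heavy chain variable genes rose in WT and 34 in Rab44-KO, and all 46 kappa variable genes rose in WT and 38 in Rab44-KO. Of the 39 heavy chain genes 30 were blunted, 8 kept and 1 larger in Rab44-KO, and of the 46 kappa genes 35 were blunted, 8 kept and 3 larger. Igkv2-137 had 7, 14, 2249 and 18 counts, an interaction of −8.02 (−9.75 to −6.42). Ighv1-39 had 7, 29, 810 and 43. In contrast, Igkv17-127 had 22, 13, 1168 and 822 counts, and Igkv5-39 had 16, 9, 761 and 531, so that both genotypes rose alike. Ighv5-17 was higher in Rab44-KO, with 13, 14, 246 and 491 counts. Ighv1-54 and Igkv4-79, with 2, 0, 279 and 27 counts and 1, 0, 276 and 19 counts, count as kept only through the small count added to a 0, and with the 0 at 3 counts their interactions were −4.04 and −5.53. Each B cell clone uses 1 heavy and 1 light chain variable gene. Variable genes share sequence, so reads can be split between them, and all of them lie in the 3 shortest length groups, where removing the trend moved the medians from −2.33 to −1.85 and from −2.45 to −1.97.

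Plasma cell genes were split likewise, with 4 of 10 evaluable genes blunted. Jchain, which joins IgM and IgA chains, had 266, 521, 15799 and 4761 counts, Mzb1, a plasma cell chaperone, had 98, 74, 956 and 185, and Pou2af1, a B cell coactivator, rose equally, at 1.88 and 1.89. Of 9 evaluable B cell genes none had an interaction past 1 in either direction, and their median of −0.29 was 0.0052 on TPM. Cd79a, a chain of the B cell receptor, was kept, with 837, 521, 1934 and 1158 counts. T cell genes had a median response of 1.11 in WT against 0.18 in Rab44-KO, and 6 of 14 were blunted rises. Cd4 had 129, 173, 323 and 181 counts. Ctla4, a checkpoint receptor of activated and regulatory T cells, rose in both genotypes, with 17, 23, 153 and 93 counts.

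Antigen presentation, complement and phagocyte genes had lower medians in Rab44-KO than in WT. Of 10 MHC class II genes 5 were blunted rises, with medians of 1.26 and −0.08. H2-Ab1 had 7056, 6748, 18559 and 6311 counts and an interaction of −1.57 (−1.64 to −1.51), and Cd74, the class II chaperone, had 18251, 18261, 44815 and 15341. Among 10 dendritic cell genes 6 were blunted rises. Batf3, a factor of cross-presenting dendritic cells, had 20, 35, 113 and 24 counts, whereas Clec9a, a receptor of the same cells, had 986, 970, 608 and 904 and did not pass 2-fold. The 3 C1q chain genes, made by macrophages, had interactions from −1.85 to −1.73, with 553, 530, 2152 and 658 counts for C1qa. C3, the central complement component, had 10283, 13596, 39924 and 29760 counts and passed 2-fold in both genotypes, at 1.94 in WT and 1.03 in Rab44-KO. Its interaction of −0.91 was −1.04 with the length trend removed, which ends its place among the kept rises. Of 13 phagocyte receptor and oxidase genes 12 rose in WT and 3 in Rab44-KO, and 6 were blunted, with medians of 1.61 and 0.76. Mmp12, the macrophage elastase, had 101, 100, 2153 and 126 counts and an interaction of −4.16 (−4.66 to −3.67). Trem2, a lipid receptor of macrophages, had 41, 60, 390 and 68.

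Inflammatory and acute-phase genes also had lower medians in Rab44-KO, at 0.44 against 1.30 in WT for the interleukin-1 and interleukin-36 family and 0.69 against 1.86 for acute-phase genes. Of 10 interleukin-1 and interleukin-36 family genes 5 were blunted, and Il1b had 115, 191, 471 and 386 counts. Of 8 acute-phase genes 4 were blunted. Saa3, a serum amyloid protein made in inflamed tissue, had 19, 28, 1241 and 150 counts, a rise in both genotypes with an interaction of −3.69 (−4.65 to −2.76). Lcn2, an iron-sequestering protein of neutrophils and epithelium, had 1046, 1443, 9933 and 2710.

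**Figure D3:**
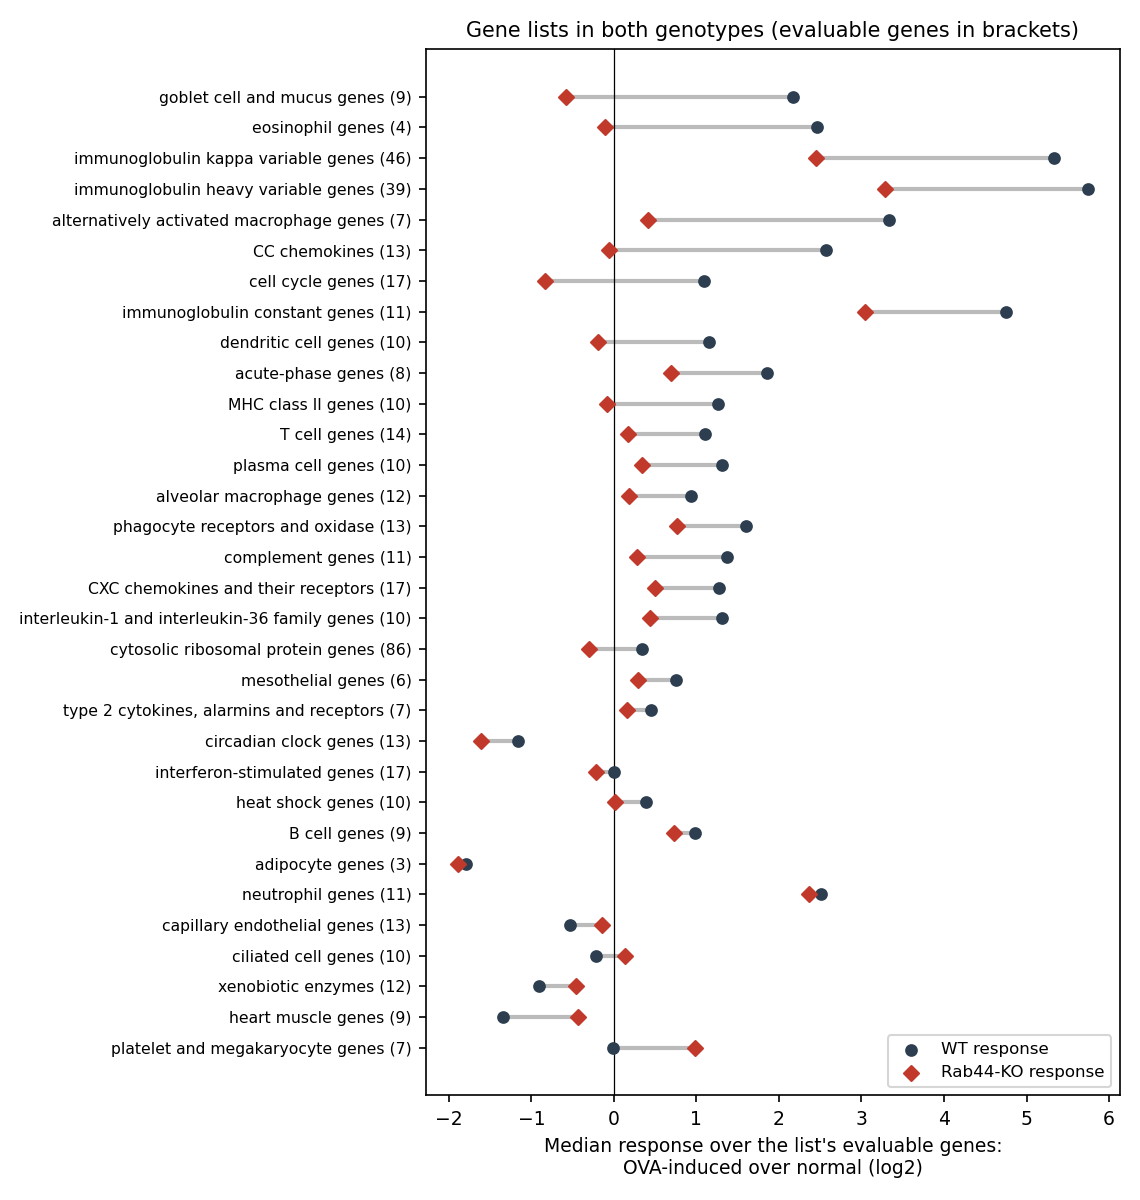
Median response (log2, OVA-induced over normal) of 32 gene lists in WT (circles) and Rab44-KO (diamonds), ordered by the median interaction, with the number of evaluable genes in brackets. The mucus list goes from 2.17 in WT to −0.58 in Rab44-KO at the top, both neutrophil medians (2.51 and 2.36) coincide, and the platelet list reaches 0.99 in Rab44-KO beside −0.01 in WT at the bottom.

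In 21 genes both responses passed 2-fold in opposite directions, 17 of them up in WT and down in Rab44-KO. Marco, a scavenger receptor of alveolar macrophages (chromosome 1, 120474538 to 120505024), had the largest interaction of these. Its counts were 145, 379, 912 and 76. The normal Rab44-KO library was above normal WT and the OVA-induced Rab44-KO library was the lowest of the 4. The WT response was 2.64, the Rab44-KO response −2.41 and the interaction −5.05 (−5.51 to −4.60). Among 12 alveolar macrophage genes, 4 were blunted rises and no other passed 2-fold downward in Rab44-KO. Ctsk, a lysosomal protease, had 614, 449, 5349 and 598 counts, and Atp6v0d2, a proton pump subunit, had 802, 651, 3180 and 898. Car4 and Cidec, also on the list, rose in neither genotype, and Ear1 had its higher response in Rab44-KO, at −0.22 in WT and 0.64.

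Cell division genes were the largest group among the opposite responses. Of 17 evaluable cell cycle genes 9 rose in WT, 7 fell in Rab44-KO and 14 had an interaction below −1, with a median response of 1.10 in WT against −0.83 in Rab44-KO. Members such as Ccnb1, Ccnb2, Birc5 and Aurkb reached 100 counts in the OVA-induced WT library alone. The WT rises and negative interactions thus follow in part from the count minimum. Top2a, which untangles DNA at division, had 276, 318, 667 and 141 counts, and its interaction was −2.53 (−2.89 to −2.17). Ccnb1, the cyclin of mitotic entry, had 54, 51, 141 and 13, and Birc5, a spindle protein, had 63, 64, 155 and 26. In each the normal libraries were alike and the OVA-induced libraries lay on either side of them. Mki67, a general mark of dividing cells, had 280, 384, 604 and 250 counts and fell short of 2-fold in Rab44-KO. Over all 330 evaluable genes annotated to cell division the median responses were 0.03 in WT and −0.04 in Rab44-KO and the median interaction −0.07, and 30 were below −1 and 3 above 1, against 4.82% and 3.13% of all evaluable genes. Tff2, a trefoil peptide of mucus, Fabp5, a fatty acid binding protein, and Slc39a2, a zinc transporter, also had opposite responses, with 138, 118, 389 and 37 counts, 1539, 1441, 5389 and 756 counts, and 79, 47, 440 and 15 counts.

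Neutrophil genes gave 5 of the 144 kept rises. All 11 evaluable neutrophil genes rose in WT and 9 rose in Rab44-KO, with medians of 2.51 and 2.36. S100a8 and S100a9, which form the calprotectin of neutrophils, had 336, 367, 2012 and 2693 counts and 538, 558, 3461 and 4872 counts. Both genotypes rose, and the OVA-induced Rab44-KO library was the higher one. Mmp8, a neutrophil collagenase, had 57, 39, 163 and 400 counts, a larger rise in Rab44-KO with an interaction of 1.76 (1.08 to 2.44). Stfa2l1, a protease inhibitor of neutrophils, had 13, 5, 75 and 198. Against these, Lcn2 and Retnlg were blunted, Retnlg at −1.08 (−1.27 to −0.89). Ngp, a neutrophil granule protein, had 0, 7, 187 and 323 counts. It is a blunted rise only through the small count added to the 0, and with the 0 at 3 counts its interaction was −0.52.

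Of the 144 kept rises, 20 (13.9%) were immunoglobulin genes, as were 74 of the 411 blunted rises (18.0%) and 101 of all evaluable genes (0.727%). Cpa3, a mast cell protease, had 59, 35, 128 and 79 counts, and Hdc, which makes histamine, had 985, 808, 2388 and 1847, with interactions of −0.03 and −0.17. Fundc1, a mitochondrial membrane protein, was listed at 0 in both normal libraries and had 892 and 844 counts in the OVA-induced ones. It was the only evaluable gene at 0 in both normal libraries, and no fold is given.

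Kept falls included fat and muscle genes. All 3 evaluable adipocyte genes fell in both genotypes: Cfd (adipsin) had 592, 867, 177 and 223 counts, Adipoq (adiponectin) had 92, 159, 25 and 59, and Plin1, a coat protein of fat droplets, had 62, 122, 18 and 35. Nppa, the atrial natriuretic peptide, had 341, 541, 38 and 99 counts. Fat and atrial tissue can be taken with a lung, and the amount of it in each library was not tested.

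Circadian clock genes gave 4 of the 5 larger falls in Rab44-KO, Dbp, Nr1d1, Nr1d2 and Per3. Of 13 evaluable clock genes 8 fell in WT and 9 in Rab44-KO, with medians of −1.16 and −1.61. Dbp, an output factor of the clock, had 4881, 4802, 1278 and 74 counts. Both OVA-induced libraries were below the normal ones, and Rab44-KO was by far the lowest, with an interaction of −4.17 (−4.53 to −3.83). Nr1d1 and Nr1d2, repressors within the clock, had 4723, 4161, 2235 and 648 counts and 5563, 5671, 2510 and 807 counts. Npas2, which activates the clock together with Bmal1, moved the other way, with 23, 28, 122 and 380 counts. Bmal1, named after its values were seen, had 59, 62, 312 and 891. Per1 did not pass 2-fold in either genotype, with 3417, 3931, 2343 and 3594 counts. The normal libraries were alike in all of these genes. Clock genes differ with the hour of collection, whose part was not tested.

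Other larger rises were Cdkn1a, the cell cycle inhibitor p21, with 437, 564, 1609 and 6217 counts, Pdk4, a switch towards fat oxidation, with 211, 283, 445 and 2028, and Ddit4, an inhibitor of mTOR signalling, with 557, 597, 2262 and 5621. Their interactions were 1.50 (1.30 to 1.70), 1.68 (1.38 to 1.99) and 1.13 (0.95 to 1.31).

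Gained rises numbered 64, with a median WT response of −0.11 and a median Rab44-KO response of 1.35, and 48 (75.0%) differed by no more than 0.5 in log2 between the normal libraries, against 95.8% of all evaluable genes. The normal libraries enter the choice of this class too, so the lower share is in part built in. Platelet genes were among the gained rises. Ppbp, a platelet chemokine (chromosome 5, 90768518 to 90770063), had 423, 180, 252 and 713 counts. It was lower in Rab44-KO than in WT in normal lungs and higher in OVA-induced lungs, with an interaction of 2.65 (2.32 to 2.99). Tubb1, the tubulin of platelets and megakaryocytes, had 371, 164, 191 and 528 counts, the same order of libraries, and an interaction of 2.56 (2.19 to 2.93). Itga2b, a chain of the platelet fibrinogen receptor, had 358, 220, 317 and 585, and an interaction of 1.50 (1.18 to 1.82). All 7 evaluable platelet and megakaryocyte genes had a positive interaction, against 45.8% of all evaluable genes, and 3 were above 1, with a median response of −0.01 in WT against 0.99 in Rab44-KO. In wider annotated groups, 27 genes of platelet activation had a median interaction of 0.04, with 3 below −1 and 0 above 1, and 58 genes of blood coagulation had −0.13, with 4 below and 1 above. Gp1ba and Itgb3, other platelet receptor chains, came to 0.97 and 0.99 in Rab44-KO, just short of 2-fold. Of 6 evaluable erythroid genes, which mark red blood cells, 2 had a positive interaction, and Hbb-bs, a beta globin, had 15931, 16010, 13873 and 13320 counts.

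The gained rise with the largest interaction was Fam124b, with 23, 17, 16 and 150 counts and an interaction of 3.57 (2.30 to 4.87). Clca3a1, a relative of Clca1 in the same family, had 63, 92, 46 and 425 counts. Its highest library was OVA-induced Rab44-KO and its lowest OVA-induced WT, with an interaction of 2.58 (1.91 to 3.25). Peg3, an imprinted zinc finger gene, had 375, 337, 279 and 1193, and Gdpd2, a phosphodiesterase, had 127, 147, 147 and 745. Dnm3os, a non-coding RNA, had 109, 65, 117 and 395. In each the OVA-induced Rab44-KO library was the highest of the 4. Of the 64 genes 26 (40.6%) carried only a predicted-gene or clone symbol, against 7.22% of all evaluable genes, and 26 were not protein-coding, against 7.74%.

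Gained falls numbered 52, and 36.5% of them kept their class on TPM. Cpxm1, a carboxypeptidase-like matrix protein, had 496, 621, 809 and 190 counts and an interaction of −2.50 (−2.79 to −2.21). Ccn4, a secreted matrix protein, had 218, 227, 290 and 88. Uhrf1, which maintains DNA methylation at replication, Cdc6, which licenses replication origins, and the cyclin gene Ccnb2 had 133, 131, 260 and 66 counts, 65, 102, 126 and 51 counts, and 71, 94, 128 and 48 counts. Zbtb16, a zinc finger factor, had 1447, 2415, 1389 and 663. In 7 of the 52 (13.5%) the normal libraries already differed by over 2-fold, against 0.785% of all evaluable genes. Among them were Hspa1a and Hspa1b, the inducible heat shock proteins, with 194, 567, 225 and 227 counts and 165, 548, 221 and 241 counts. For Hspa1a and Hspa1b the OVA-induced libraries were equal and only the normal Rab44-KO library was high. Rps27rt, a ribosomal protein retrogene, had 853, 2580, 731 and 601 counts, which are uncertain because its parent gene has nearly the same sequence.

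Blunted falls numbered 128, with a median response of −1.25 in WT against 0.16 in Rab44-KO. Of these, 110 (85.9%) differed by no more than 0.5 in log2 between the normal libraries, against the same 95.8% of all evaluable genes. Here too the normal libraries enter the choice of the class, so the lower share is in part built in. Bpifa1, a secreted defence protein of the upper airway epithelium, had 3863, 5575, 242 and 1892 counts. It fell in both genotypes, by 4.01 in WT and by 1.65 in Rab44-KO on the log2 scale, with an interaction of 2.35 (2.15 to 2.56). Heart muscle genes, from the muscle sleeve of the lung veins or attached heart, had 4 of 9 evaluable members here, with a median response of −1.35 in WT against −0.43 in Rab44-KO. Myh6, the atrial myosin heavy chain, had 5367, 6059, 1942 and 6774 counts, and Ryr2, the calcium release channel, had 412, 487, 171 and 820, so that the OVA-induced WT library alone was low. Nppa above fell in both. Summed over the list, CPM were 778, 862, 341 and 771, and the part of tissue sampling was not tested.

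Enzymes of foreign-compound metabolism in airway epithelium were next. Of 12 evaluable xenobiotic enzymes 5 fell in WT, 2 in Rab44-KO and 3 were blunted falls, with medians of −0.91 and −0.46. Cyp2a5, a cytochrome P450, had 2319, 2467, 402 and 956 counts, and Fmo2, a flavin monooxygenase, had 31325, 28259, 15260 and 31302. Among the 128, 43 (33.6%) were not protein-coding, against 7.74% of all evaluable genes. Gm41846 and Gm39957, predicted genes that lead the class, had 18, 22, 8 and 104 counts and 67, 63, 14 and 138 counts, and both rose past 2-fold in Rab44-KO.

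An interaction can also come from the normal libraries. Of the 1104 genes past 1 in either direction, 72 (6.52%) differed by over 2-fold between the normal libraries and 788 (71.4%) between the OVA-induced ones. Over all evaluable genes these shares were 0.785% and 7.89%. Both differences make up the interaction, so higher shares are in part built in. In 20 genes below −1 the normal libraries differed by over 2-fold and the OVA-induced ones did not. Slc7a11 and Il36g, given next, are not among these 20, because their OVA-induced libraries also differed by over 2-fold. Slc7a11, the cystine transporter of glutathione synthesis (chromosome 3, 49892526 to 50443614), had 43, 182, 275 and 123 counts. It rose in WT from the lowest library, while Rab44-KO began high and went down by less than 2-fold. Rab44-KO over WT was 2.15 in normal and −1.17 in OVA-induced lungs, which gives the interaction of −3.32 (−3.93 to −2.73). Il36g, an epithelial cytokine of the interleukin-1 family, had 14, 114, 101 and 207 counts. Rab44-KO was the higher genotype in both conditions, but the Rab44-KO response to OVA did not pass 2-fold.

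Cyp1a1, the classic target of the aryl hydrocarbon receptor (chromosome 9, 57687928 to 57703824), had 67, 3418, 30 and 212 counts. The normal Rab44-KO library stood far above the others, and both genotypes fell with OVA, Rab44-KO by 4.11 and WT by 1.17 on the log2 scale. Cyp26b1, which degrades retinoic acid, had 300, 1671, 758 and 9029 counts, higher in Rab44-KO in both conditions and risen in both genotypes, with an interaction of 1.01 (0.80 to 1.22). Removal of the length trend put it at 0.61. Msln and Upk3b, surface proteins of the mesothelium, had 500, 972, 1582 and 1355 counts and 504, 971, 1308 and 1232 counts, and also had a higher normal Rab44-KO library and level OVA-induced libraries.

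**Figure D4:**
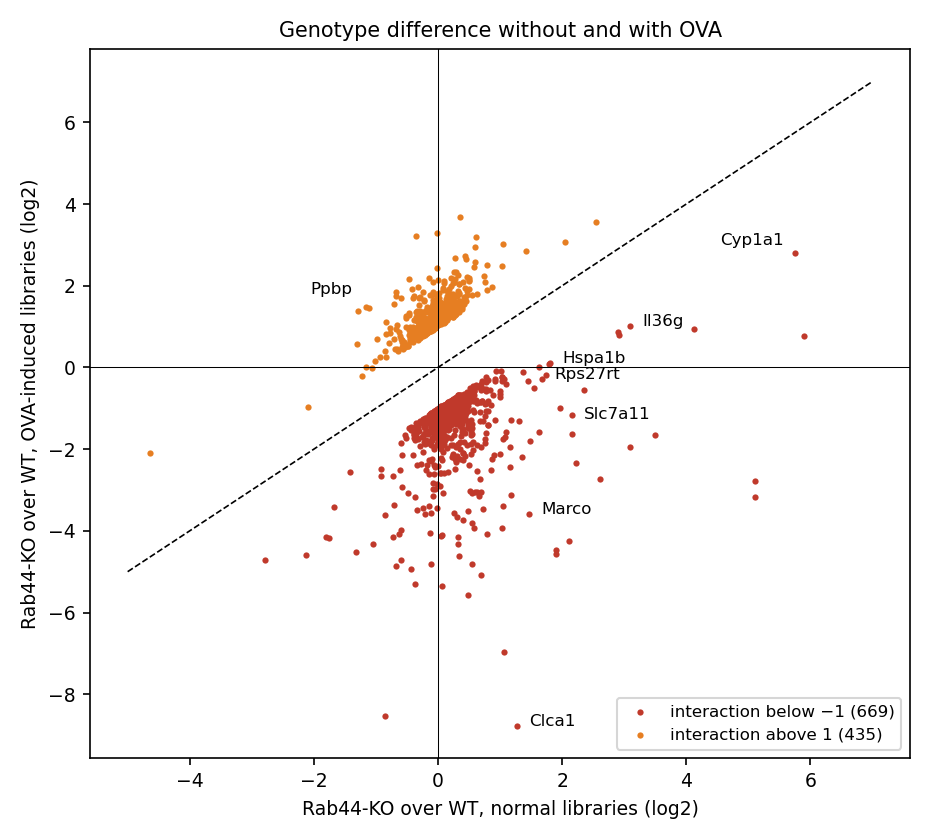
Rab44-KO over WT (log2) in the normal libraries on the horizontal axis and in the OVA-induced libraries on the vertical axis, for the 1104 genes with an interaction below −1 or above 1. Most points lie near 0 horizontally, Clca1 lies at 1.27 and −8.77, Slc7a11 at 2.15 and −1.17, Ppbp at −1.16 and 1.49, and Cyp1a1 at 5.74 and 2.81.

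In 201 of the 669 genes below −1 and 226 of the 435 above 1, neither response passed 2-fold, and the interaction arose from small responses of opposite sign. Endothelial genes are examples above 1. Epas1, the hypoxia-inducible factor of endothelium, had 53789, 53838, 31710 and 69899 counts and an interaction of 1.06 (1.03 to 1.08). Tek, the angiopoietin receptor, had 8590, 7455, 4905 and 9947 and an interaction of 1.14 (1.07 to 1.21). Over 13 capillary endothelial genes, however, the median interaction was 0.28 and only Tek was above 1. Hydin, a very long gene of the ciliary apparatus, had 509, 540, 303 and 984 counts. Of 50 evaluable genes annotated to cilium movement, 42 had a positive interaction, against 45.8% of all evaluable genes, and 4 were above 1, against 3.13%. Their median interaction was 0.46, and 0.38 with the length trend removed. Dnah12 and Dnah7b, long genes above 1 at 1.01 and 1.29, came to 0.59 and 0.85 with the trend removed. Below −1, Ppia, a housekeeping protein isomerase, had 8244, 9121, 11196 and 5197 counts, and Sftpc, the surfactant protein of alveolar type 2 cells, came close, with 262219, 237887, 361981 and 181126 counts and an interaction of −0.94 (−0.95 to −0.93).

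Gene length moved with the interaction across all genes. In 10 groups of evaluable genes ordered by length (taken from the ratio of counts to TPM), the median interaction ran from −0.53 in the shortest to 0.39 in the longest. The WT response ran from 0.25 down to −0.25, and the Rab44-KO response from −0.23 up to 0.14. Between the normal libraries the medians of Rab44-KO over WT stayed from −0.07 to 0.07, and between the OVA-induced libraries they ran from −0.61 to 0.46. Of the 669 genes below −1, 233 were in the shortest group and 20 in the longest, and of the 435 above 1, 35 and 97. Cytosolic ribosomal protein genes, which are short, had a median interaction of −0.63 over 86 genes, and −0.22 with the trend removed. With the trend removed, the medians were −2.09 for alternatively activated macrophage genes, −1.63 for CC chemokines, −2.18 for cell cycle genes, 0.20 for neutrophil genes, 1.04 for platelet genes and 1.27 for heart muscle genes. What made the trend was not tested.

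**Figure D5:**
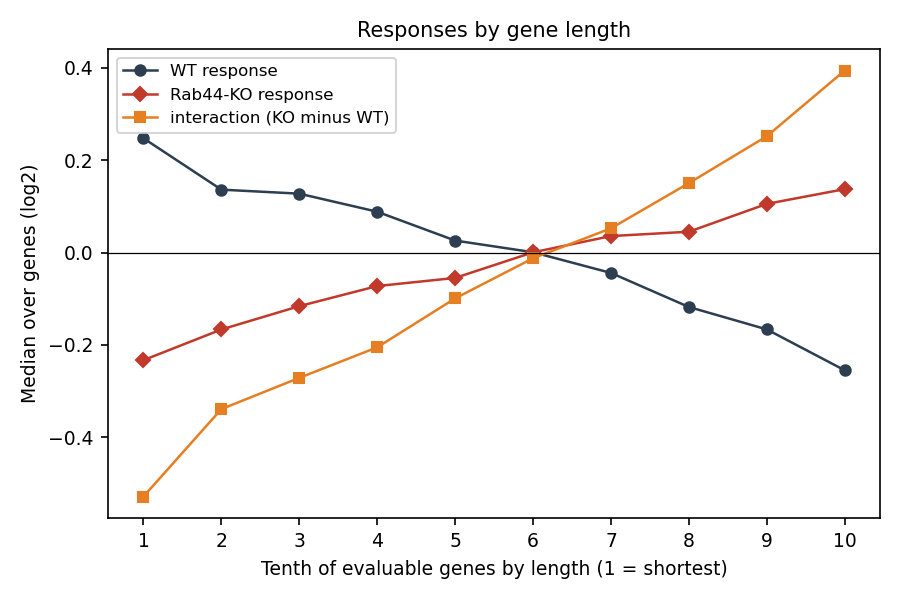
Median WT response, Rab44-KO response and interaction (log2) in 10 groups of evaluable genes from the shortest to the longest. The interaction climbs from −0.53 to 0.39 because WT and Rab44-KO responses slope in opposite directions.

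Of the 13 genes measured in 1 genotype, Rnase2a, an eosinophil-associated ribonuclease, had 0, 1, 524 and 5 counts, and Awat1, a wax synthase, had 0, 0, 331 and 3. In the OVA-induced libraries Rab44-KO over WT was −6.69 (−8.35 to −5.49) and −6.74 (−9.08 to −5.24) on the log2 scale. Cd209e, a lectin, had 1, 5, 124 and 5. Ighv5-16 was the reverse, with 1, 19, 2 and 110 counts. At the count minimum, the 28 genes whose highest count was 100 had interactions from −3.12 to 1.55 with a median of 0.04, and the 24 genes just outside, with a highest count of 99, had interactions from −1.54 to 2.56 with a median of −0.16.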

How the data were processed

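Lung RNA of 4 libraries, 1 per group, was made into strand-specific libraries and sequenced as 150-bp read pairs. The authors aligned reads with HISAT2 to GRCm38 and counted them per gene with featureCounts. The deposited table holds raw counts, which were used throughout, and TPM computed by the authors, used as an alternative and for relative gene length. Tool versions, strand setting and treatment of multiply mapped reads are not given in the sources used here.

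Counts were scaled by library totals and TMM factors (edgeR 4.0.16) with a prior count of 0.125. Genes with at least 100 counts in some library entered. A response was called past 2-fold (log2 threshold 1), and the interaction likewise. The 95% intervals cover counting error only, and those of the interaction are exact except in 2 genes with very high counts. A count of 0 allows up to 3 counts. No test was possible, and no p-value is given. The script was tested on simulated counts. Length trends were removed with a running median over 501 genes. Alternatives were total counts only, DESeq2 1.42.0 size factors, TMM without immunoglobulin genes, other prior counts, thresholds and count minimums, thinned counts, TPM and the length trend. Chosen after seeing the data were counts of 0 set to 3, counts without immunoglobulin genes and centred TPM.

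Named genes were Rab44, the markers Clca1, Slc7a11, Ppbp and Marco, the 10 leading genes of each class, the 10 highest genes measured in 1 genotype, those nearest to the count minimum, and up to 5 leading and 3 most abundant members of each list. Cxcr2, Ccl27a, Iglc1, Pou2af1, Ear1, Cidec and Bmal1, and the sex-linked genes, were named after their values were seen. Members and gene lists were chosen with earlier results of these data known. Promoters and GRCm38 positions came from RefSeq and GENCODE. Of 28794 gene symbols, 3933 (13.7%) had deposited coordinates that overlap the gene of that name on GRCm38. Most deposited coordinates thus do not match the build named for the alignment, and which build they follow was not tested. These coordinates were not used.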

Additional observations from a re-analysis of the deposited data

Results flagged for a closer look

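In 10 genes, the most extreme of the 21 with opposite responses, the OVA response passed 2-fold upward in 1 genotype and downward in the other. Each group is a single library, so the difference was not tested. In 8 of them WT rose and Rab44-KO fell, and the interaction on the log2 scale was −5.05 for Marco, −4.95 for 4930430E12Rik, −4.20 for Slc39a2, −3.43 for Ccnb1, −3.25 for Tff2, −3.06 for Gm12191, −2.82 for Fabp5 and −2.76 for Rtl1. In the other 2, the predicted genes Gm41846 and Gm39957, WT fell and Rab44-KO rose, with interactions of 3.31 and 3.30. Counts were low in some of these libraries: 4930430E12Rik had 10, 12, 125 and 5 counts and Gm41846 had 18, 22, 8 and 104. Gm12191, a predicted gene with 469, 833, 1054 and 238 counts, and Rtl1, an imprinted gene with 45, 52, 106 and 19 counts, were highest in the OVA-induced WT library and lowest in the OVA-induced Rab44-KO library.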

How the results depend on the processing

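No named gene with an interaction beyond 1 in either direction changed sign under the alternatives run. Sign changes of list medians found among lists the report describes are named below. No paired analysis was possible because each group is 1 library, and for the same reason no library could be left out. All 13 class counts stayed within 1.5 times under total counts only, DESeq2 size factors, a prior count of 2, TMM without immunoglobulin genes, thinned counts, length trend removed, and, chosen after seeing the data, counts of 0 set to 3, counts without immunoglobulin genes and centred TPM. Members changed more than counts: 65.2% of blunted rises kept their class on TPM, 74.9% with the length trend removed and 90.5% on total counts, and 36.5% of gained falls did on TPM.

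The balance of interactions turned on TPM (pseudocount 0.1). There were 269 blunted rises, 119 gained rises, 243 blunted falls, 22 gained falls and 389 WT falls, with 362 interactions below −1 and 1066 above 1. The following give, in order, blunted, kept, larger and gained rises, blunted, kept and gained falls, interactions below −1 and above 1, and WT rises, Rab44-KO rises, WT falls and Rab44-KO falls. With at least 10 counts they were 738, 283, 42, 283, 548, 112, 249, 1370, 1312, 1390, 948, 860 and 625. With at least 1 count they were 2114, 718, 199, 888, 1945, 423, 767, 3462, 3622, 3422, 3031, 2708 and 2449. With at least 500 counts they were 170, 58, 7, 19, 30, 22, 15, 272, 151, 350, 147, 94 and 85. With a log2 threshold of 2 they were 125, 53, 3, 6, 4, 1, 4, 159, 31, 244, 122, 11 and 18. By construction, lower count minimums add genes, and higher ones and a higher threshold remove them. With intervals wholly beyond 1 there were 224 blunted, 6 larger and 30 gained rises, 58 blunted and 25 gained falls, and 283 and 140 interactions.

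Among list medians, TPM gave a B cell interaction of 0.0052, phagocyte values of 1.42 in WT and −0.64 for the interaction, a cell cycle response of −0.69 in Rab44-KO and a heart muscle response of −1.52 in WT. The adipocyte WT response was −1.74 with a prior count of 2, −1.92 on TPM, −1.75 on thinned counts and on centred TPM, and −1.97 with the length trend removed. Ribosomal protein genes had a WT response of 0.30 on total counts, 0.16 on TPM and 0.11 with the length trend removed, a Rab44-KO response of −0.17 on TPM and −0.0861 with the trend removed, and an interaction of −0.57, −0.33 and −0.22 under these 3. Medians changed sign on TPM for the Rab44-KO response of CC chemokine, eosinophil and MHC class II genes and for the B cell and adipocyte interactions, and with the length trend removed for the CC chemokine, adipocyte, erythroid and annotated platelet activation values. The mast cell and basophil interaction went from −0.03 to 0.13 with the length trend removed. The platelet WT median, close to 0, did so on thinned counts. The causes were not tested. Of 459 named genes, the interaction left its counting interval in 265 on TPM, 200 with the length trend removed and 61 on total counts. Low counts limit genes such as Chil4, Prg2 and Ccl20.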
